A study of Bos taurus with 48 samples.

Results

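The genes described here encode the nuclear subunits of the last 3 steps of mitochondrial respiration in cattle longissimus muscle: complex III (the cytochrome bc1 complex), complex IV (cytochrome c oxidase) and ATP synthase, with cytochrome c, which carries electrons between complexes III and IV. They were taken by name: every probe whose gene name or bracketed symbol began with UQCR, ATP5, COX4I, COX5, COX6, COX7 or COX8, or was CYC1, CYCS or UQCC. The rule took 36 of the 19744 genes on the array, each with 1 probe: 7 subunits of complex III, cytochrome c (CYCS), 11 subunits of complex IV, the linking factor COX7A2L, 15 subunits of ATP synthase and ATP5S, called factor B or DMAC2L. Another 6 genes stood on the array under names that the rule did not take (COX4I1, COX4I2, COX8B, UQCRQ, UQCR10 and NDUFA4, now counted with complex IV), and are given beside the 36 where an isoform pair needs them. All 36 genes passed the filter on dim signal, and 25 of them were brighter than 90 percent of the genes measured.

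RNA of longissimus muscle biopsies from 35 animals had been hybridised to 48 two-colour arrays, 2 animals an array. Piedmontese × Hereford and Wagyu × Hereford animals were sampled at 60, 135 and 195 days of gestation (2, 5 and 5 animals), at birth (6), and at 3, 7, 12, 20, 25 and 30 months, with 8 animals an age except 6 at 12 months. The post-natal samples came from 9 animals, all biopsied repeatedly except the Piedmontese cross animal GP273. It was sampled only at 7 months, in 1 channel, and still counts as 1 animal where post-natal animals are averaged over ages. Belmont Red cattle on a growth diet or a restricted diet, named weight loss in the labels, were sampled at times 0, 1 and 2 with 4 and 4, then 4 and 3, then 2 and 2 animals. The labels name no other treatment or allele for any group, and the 60-day foetuses were 1 animal per cross. GP041A and GP041B at 195 days were counted as 2 animals, although their codes share a number and the labels do not say whether they are separate animals; results that change when they are counted as 1 are named. Levels are log2 intensities of a probe. The brightness of a spot depends on its probe, so levels of different genes were not ranked, and every change is a difference of log2 levels of the same probe between groups of animals.

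In the inner mitochondrial membrane, complex III passes electrons from ubiquinol to cytochrome c, complex IV passes them from cytochrome c to oxygen, and ATP synthase uses the proton gradient that the chain builds to make ATP. Complex IV holds a catalytic core encoded by mitochondrial DNA, surrounded by nuclear subunits, several of which exist in tissue forms. In cattle, subunits VIa, VIIa and VIII have heart and muscle forms (COX6A2, COX7A1 and COX8B) and forms named after liver that most tissues use (COX6A1, COX7A2 and COX8A). Subunit c of ATP synthase forms the rotating ring, and 3 genes, ATP5G1, ATP5G2 and ATP5G3, encode the same mature protein with different import signals.

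The probes that separate these forms are shown because the isoform results rest on them. Each was 60 bases long, and a stretch of 30 bases is given as it stands in the array annotation, 5′ to 3′, with a polyadenylation hexamer in capitals where the stretch holds one.
COX7A1 (muscle form): cgaacaggcatcAATAAAtgtgctggtttc
COX7A2 (liver form): ttgtattagctgccaccAATAAAgcagtct
COX8B (muscle form): gcgggccccacacctggcacagacaggaag
COX8 (COX8A, liver form): ctcccttgcaacAATAAAgtctatttaaag
COX6A2 (muscle form): tcaaccctctgcccacgggctacgaaaagc
ATP5G1: aggccatgcccggtgctggagtgtgctaac
ATP5G3: tgtatcttactgtgactccgaaaactatag
The probes of a pair of forms shared no run of identical bases longer than 7. The hexamer AATAAA, searched on the probe strand only, was present in 12 of the 36 probes (33.3%) against 11.8% of all 21475 probes on the array. The deposited annotation describes the COX8 probe as a heart form, but its transcript is COX8A in RefSeq, the liver form, and it is treated as COX8A here. No probe for COX6A1 was named by the rule or by RefSeq, so COX6A2 has no partner.

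One animal stood apart. In the 135-day Piedmontese cross foetus GP672, all 6 muscle fibre markers measured lay below the range of the other 4 foetuses of that age, with skeletal actin (ACTA1) at 10.02 against 16.73 to 17.58. The adipocyte marker FABP4 was at 16.56 in that animal against 9.03 to 11.63. Of the 36 genes, 19 lay above the range of the other 135-day animals, 6 below and 11 within. Counts at the foetal steps are therefore given with and without GP672, as are the genes and ratios named at the 135-day age. Elsewhere the muscle fibre markers were bright, with a summed intensity of 120670 to 184302 at 60 days, 374885 to 569104 at 195 days and 497354 to 660109 at birth, while the satellite cell marker PAX7 and the adipocyte marker LEP did not pass the filter on dim signal.

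Most subunit genes were more abundant after birth than before it. Between 12 foetuses of 60 to 195 days and 9 animals of 3 to 30 months, 30 of the 36 genes rose and 4 fell, where 74.7% of the 14732 genes tested changed, 38.6% upwards and 36.1% downwards (limma, adjusted p under 0.05). The median change was 0.84 for the 36 genes and 0.02 for all genes. With channels only centred on their medians these were 1.41 and 0.12, and from the scanner's processed signals 1.79 and 0.26. Without GP672 30 genes rose and 4 fell as well, where 76% of all genes were called. In bulk muscle, fewer cells of a type and less RNA per cell cannot be told apart.

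All 7 complex III genes rose, by 0.37 (UQCRH) to 2.36, and UQCRH did not pass with GP041A and GP041B as 1 animal (0.33, adjusted p = 0.0619). UQCRFS1, the Rieske iron-sulphur protein, lay between 10.73 and 12.04 in the foetuses (median 11.57) and between 13.57 and 14.15 after birth (median 13.88). The 2 groups did not overlap, and the rise was 2.36 ± 0.14 (SE, adjusted p = 1.57e-12). The core protein UQCRC1 lay between 13.64 and 15.16 (median 14.25) before birth and between 15.44 and 15.78 (median 15.63) after it, a rise of 1.39 ± 0.14 (adjusted p = 1.16e-08) with no overlap. CYC1, cytochrome c1, rose by 1.06 ± 0.13 (adjusted p = 1.49e-07), from 14.66 to 16.15 (median 15.12) before birth to 16.04 to 16.39 (median 16.20) after it, and 1 range reached into the other.

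Cytochrome c had the largest rise of the 36 genes. CYCS lay between 10.01 and 11.68 in the 12 foetuses (median 11.21) and between 13.61 and 14.15 in the 9 post-natal animals (median 13.99). The ranges were far apart, and the rise was 2.85 ± 0.17 (SE, adjusted p = 1.64e-12).

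Complex IV split by isoform. COX5A, COX5B, COX6C, COX7B and COX7C, which have a single form here, rose (0.58 to 1.81), both muscle forms taken by the rule rose, and both liver forms fell. COX5A, which binds the core from the matrix side, lay between 13.35 and 14.67 (median 14.27) before birth and between 15.52 and 15.85 (median 15.77) after it, a rise of 1.59 ± 0.14 (adjusted p = 1.96e-09). COX5B rose by 1.32 ± 0.15 (adjusted p = 5.5e-08), from 12.62 to 14.21 (median 13.28) to 14.26 to 14.77 (median 14.57). Neither gene had foetal and post-natal values that overlapped.

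Among the muscle forms, COX7A1 lay between 12.62 and 15.31 (median 14.78) in the foetuses and between 15.996 and 16.37 (median 16.21) after birth, a rise of 1.75 ± 0.30 (adjusted p = 1.95e-05) with no overlap. COX8B lay between 10.47 and 14.67 (median 13.78), then between 15.02 and 15.39 (median 15.15), a rise of 1.84 ± 0.43 (adjusted p = 5.43e-04) with no overlap. COX6A2 lay between 8.82 and 15.12 (median 14.36), then between 14.94 and 15.16 (median 15.06), and its rise of 1.37 ± 0.55 (adjusted p = 0.0285) was 0.93 (adjusted p = 0.00334) without GP672, which holds the lowest value. The foetal values of all 3 genes were widely spread and the post-natal values lay within a narrow band.

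The liver forms went the other way. COX7A2 lay between 11.84 and 14.20 (median 12.68) before birth and between 10.85 and 12.41 (median 11.39) after it; it fell by 1.29 ± 0.25 (adjusted p = 8.62e-05), and the ranges overlapped. COX8, the COX8A gene, lay between 12.46 and 14.33 (median 12.76), then between 11.31 and 11.75 (median 11.55), and fell by 1.38 ± 0.18 (adjusted p = 5.06e-07) with no overlap. COX7A2L, a relative of COX7A2 that links complexes III and IV into supercomplexes, lay between 12.84 and 13.41 (median 13.24), then between 11.91 and 12.37 (median 12.19), and fell by 0.98 ± 0.08 (adjusted p = 2.49e-10) with no overlap.

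For the remaining paired forms of complex IV the data were less uniform. COX6B, the general form (COX6B1), rose by 0.34 ± 0.11 (adjusted p = 0.00708), from 8.02 to 8.98 (median 8.62) to 8.53 to 9.19 (median 8.87). COX6B2, known as a testis form, differed by -0.09 (adjusted p = 0.719), with 10.41 to 12.33 (median 11.48) before birth and 11.10 to 11.56 (median 11.43) after it. Of the subunit IV forms, COX4I1 rose by 0.57 (adjusted p = 7.23e-05; 15.27 to 16.48, median 15.86, then 16.16 to 16.53, median 16.38) and COX4I2, known from lung and from low oxygen, rose by 0.98 (adjusted p = 0.00381; 6.99 to 9.15, median 8.05, then 8.82 to 9.92, median 9.02). All 4 of these genes had ranges that overlapped.

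Of the 15 ATP synthase genes 13 rose, ATP5G2 fell and ATP5I did not pass (0.12, adjusted p = 0.174). All 5 genes of the catalytic F1 head rose, by 0.55 (ATP5E) to 1.59 (ATP5D), and all 4 of the peripheral stalk, by 0.73 (ATP5H) to 1.26 (ATP5F1). ATP5B, the catalytic beta subunit, lay between 15.58 and 16.31 (median 15.89) before birth and between 16.52 and 16.80 (median 16.72) after it, a rise of 0.77 ± 0.08 (adjusted p = 8.9e-09) with no overlap. ATP5A1, the alpha subunit, rose by 0.70 ± 0.10 (adjusted p = 1.1e-06), from 14.75 to 15.83 (median 15.16) to 15.66 to 16.16 (median 15.90), with overlap. ATP5S rose by 1.89 ± 0.22 (adjusted p = 9.96e-08), from 9.01 to 11.08 (median 10.40) to 11.93 to 12.37 (median 12.13), with none.

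The 3 subunit c genes parted. ATP5G1 lay between 13.85 and 14.77 (median 14.45) in the foetuses and between 15.55 and 15.96 (median 15.84) after birth, a rise of 1.41 ± 0.12 (adjusted p = 4.29e-10) with no overlap. ATP5G3 rose by 0.39 ± 0.10 (adjusted p = 0.00113), from 14.87 to 15.66 (median 15.36) to 15.40 to 15.90 (median 15.75). ATP5G2 fell by 0.28 ± 0.08 (adjusted p = 0.00293; 15.89 to 16.26, median 15.98, then 15.43 to 15.97, median 15.71), but was higher after birth by 0.38 with channels only centred on their medians and by 0.74 from the scanner's processed signals.

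Foetal and post-natal arrays lay on different slides, so stage and slide cannot be told apart in this comparison. Markers of other cell types moved with it: 4 of 6 muscle fibre markers rose, 5 of 5 fibroblast markers fell and 4 of 5 erythroid markers fell, and their part in the result was not tested. Each foetal age and birth was present on the same 3 slides, so the steps that follow are within slides.

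**Figure D1:**
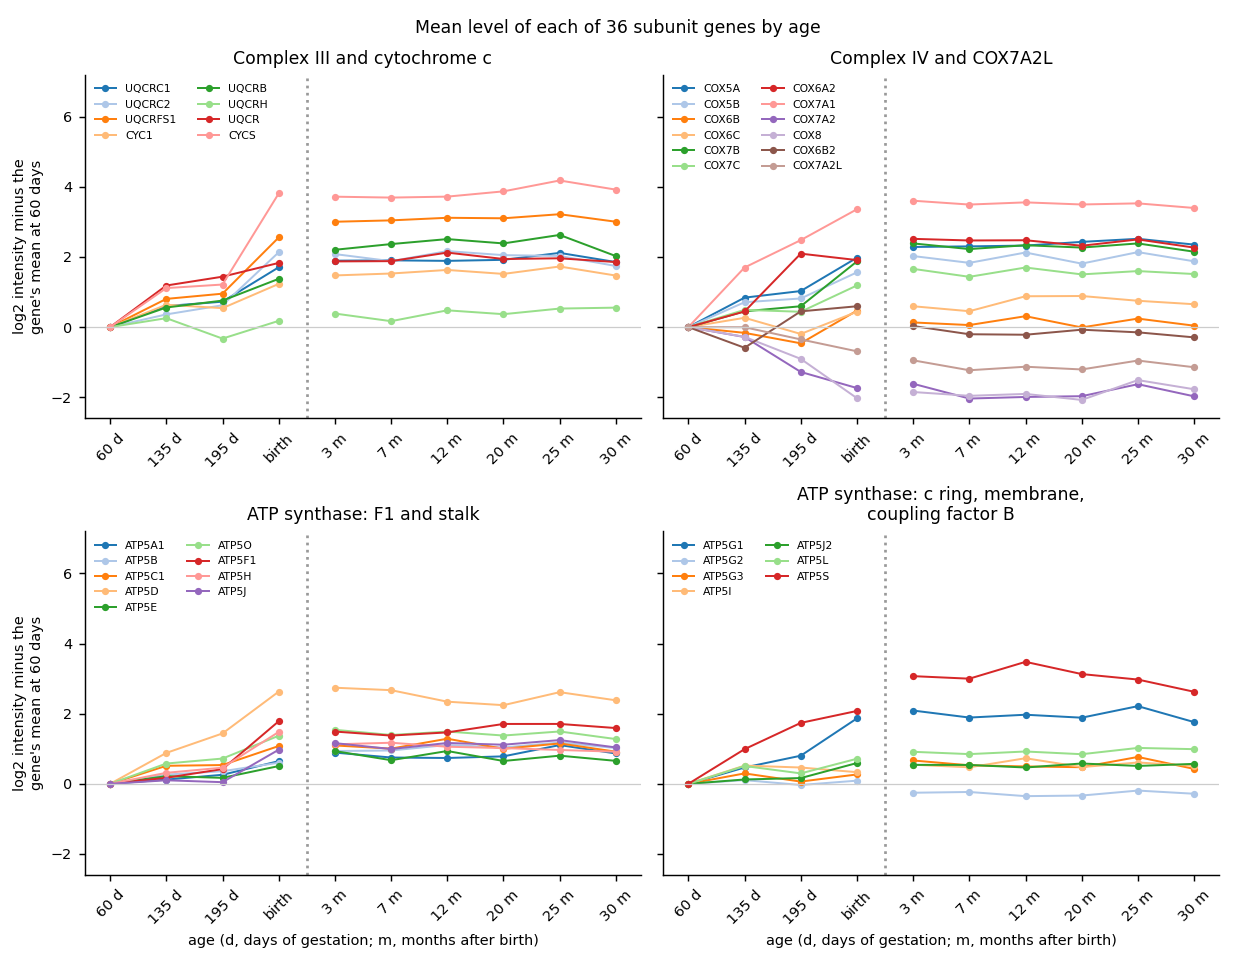
Mean log2 level of each of the 36 genes by age, minus its mean at 60 days of gestation, in 4 panels by complex. Lines that climb from 60 days to birth are most of the genes (CYCS is the steepest at the last foetal step, +2.60), lines that sink include COX7A2, COX8 and COX7A2L, and the dotted line marks the change from the foetal and newborn slides to the post-natal ones.

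Between 60 and 135 days of gestation, 8 of the 36 genes rose and none fell, where 10.2% of all genes changed (4.96% upwards, 5.28% downwards); 18 of the 36 had an unadjusted p under 0.05. They were COX7A1, COX5A, UQCR, UQCRFS1, CYCS, ATP5O, ATP5I and ATP5C1. In none of them did the 2 animals at 60 days overlap the 5 at 135 days. The 8 were picked by their p on these same values, and overlap was not counted over all genes, so this adds no support. COX7A1 was at 12.62 and 12.74 at 60 days and at 13.89, 14.05, 14.38, 14.61 and 14.95 at 135 days, a rise of 1.69 ± 0.22 (adjusted p = 1.67e-04). UQCR, a small subunit of complex III (UQCR11), was at 13.18 and 13.36, then at 14.28, 14.30, 14.53, 14.54 and 14.65, a rise of 1.19 ± 0.15 (adjusted p = 8.04e-05). CYCS was at 10.01 and 10.25, then at 10.93, 11.16, 11.18, 11.25 and 11.68, a rise of 1.12 ± 0.18 (adjusted p = 0.00114).

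Outside the rule COX8B rose at the same step by 2.41 ± 0.38 (adjusted p = 7.64e-04), from 10.47 and 11.32 to 12.51, 12.67, 13.48, 13.65 and 14.30. COX6A2 was at 12.27 and 12.97 at 60 days and at 13.76, 14.02, 14.26 and 14.46 in 4 of the 135-day animals, but at 8.82 in GP672; its change was 0.50 (adjusted p = 0.857) with that animal and 1.51 (adjusted p = 2.56e-04) without it. Without GP672 the rises were 1.56 for COX7A1, 1.23 for UQCR, 1.00 for CYCS and 2.18 for COX8B, and 13 genes rose, against 16.2% of all genes called. Leaving out GP663 or GW911, the animals at 60 days, left 1 animal at that age, so only sizes are given. The median change of the 36 genes was 0.41 without GP663 and 0.49 without GW911, against 0.45 with both. With channels centred on their medians none of the 36 passed, where 380 of all 14732 genes did. Of the cell type markers, tested with GP672 included, FABP4 and CIDEC rose among 4 adipocyte markers (summed intensity 492 to 505 at 60 days, 1268 to 139951 at 135 days). In the same fit 2 of 4 endothelial markers rose, PDGFRA fell among 5 fibroblast markers, and 0 of 6 muscle fibre markers passed. GP672 had fibre markers below all other 135-day animals. With it the muscle fibre sum was 120670 to 184302 at 60 days and 7360 to 388144 (median 233873) at 135 days. No marker result without GP672 is given, and the part of the markers in the result was not tested.

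Between 135 and 195 days 3 of the 36 genes rose and 2 fell, where 17.4% of all genes changed (8.35% upwards, 9.05% downwards). COX7A1 rose again, by 0.79 ± 0.17 (adjusted p = 0.00541), to 15.02, 15.03, 15.16, 15.26 and 15.31, all above the 135-day animals. COX7A2 was at 12.57, 12.79, 12.95, 13.26 and 14.20 at 135 days and at 11.84, 12.06, 12.17, 12.18 and 12.53 at 195 days, and fell by 1.02 ± 0.26 (adjusted p = 0.0134). COX7A1 was thus higher and COX7A2 lower in every 195-day foetus than in any 135-day one. The called genes were picked by their p on these same values, and overlap was not counted over all genes. Missing overlap at this step therefore adds no support. The other liver form, COX8, did not pass in the limma fit (-0.63, adjusted p = 0.122), nor without GP672 (-0.35, adjusted p = 0.171).

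ATP5S rose by 0.78 ± 0.23 (adjusted p = 0.0306), from 9.58, 9.94, 10.17, 10.33 and 10.46 to 10.65, 10.71, 10.88, 10.92 and 11.08. COX6C, a single-form subunit of complex IV, fell by 0.47 ± 0.12 (adjusted p = 0.0113), from 14.25, 14.41, 14.43, 14.44 and 14.50 to 13.75, 13.80, 13.82, 14.15 and 14.21, again with no overlap. COX6B2 rose by 1.08 ± 0.35 (adjusted p = 0.0431), from 10.41, 10.52, 11.0002, 11.22 and 11.49 to 12.06, 12.14, 12.24 and 12.33 in 4 animals and 11.06 in GW067, which lay among the 135-day values. The count was 8 (6 up, 2 down) without GP672, where 19.4% of all genes were called. It was 3 without GP012, GP041A or GW625 in turn, where 1989, 1575 and 1746 of all genes were called. Without GP672 the changes were 0.92 for COX7A1, -0.76 for COX7A2, -0.44 for COX6C and 1.13 for COX6B2. With GP041A and GP041B as 1 animal 3 of the 36 passed, where 1682 of all genes did. ATP5S (adjusted p = 0.0555) and COX6B2 (adjusted p = 0.0905) then missed the threshold. ATP5S missed the threshold without GP672 (0.64, adjusted p = 0.0538). None of the 36 passed with channels centred on their medians, where 415 of all 14732 genes did. At the same step 3 of 6 muscle fibre markers rose (summed intensity 7360 to 388144 at 135 days, GP672 included, and 374885 to 569104 at 195 days), 3 of 4 endothelial markers rose, and FABP4 and CIDEC fell (adipocyte sum 602 to 1650 at 195 days); their part in the result was not tested.

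**Figure D2:**
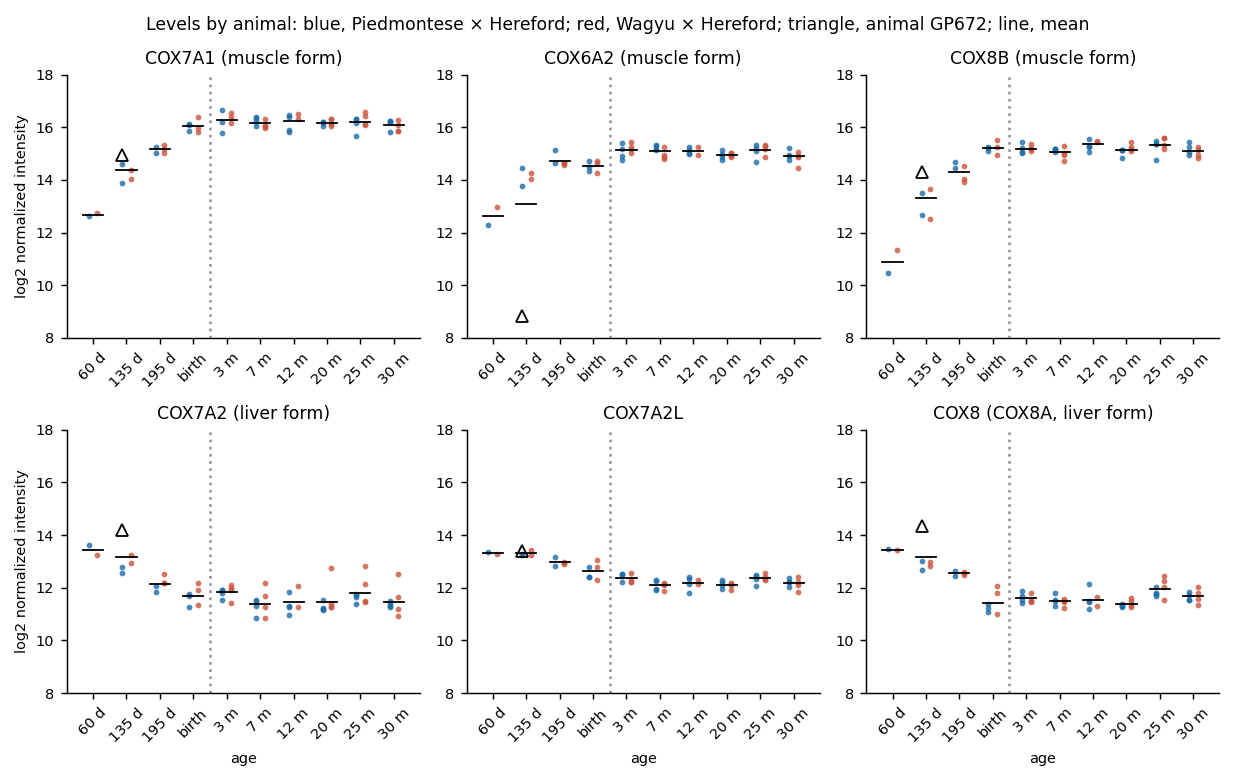
Log2 level in each animal by age for 3 muscle forms (COX7A1, COX6A2 and COX8B, top) and for COX7A2, COX7A2L and COX8 (bottom); blue points are Piedmontese × Hereford, red points Wagyu × Hereford, the triangle is GP672, short lines mark the mean of an age and the dotted line parts the foetal and newborn slides from the later ones. The top genes climb before birth and the bottom genes sink, with COX6A2 of GP672 at 8.82 far below the other animals.

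The step from 195 days to birth held the broadest rise: 26 of the 36 genes rose and 2 fell, where 62.8% of all genes changed (33.6% upwards, 29.2% downwards). The median change was 0.63 for the 36 genes and 0.05 for all, and it was 1.21 and 0.20 with channels centred on their medians and 1.51 and 0.38 from the processed signals. Without GP672 27 genes rose and 3 fell, where 66.7% of all genes were called, and with GP041A and GP041B as 1 animal 24 rose and 1 fell, with ATP5A1, UQCRH and COX7A2L missing the threshold. All 7 complex III genes rose, with 7 of 11 complex IV genes, 11 of 15 ATP synthase genes and CYCS.

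CYCS lay between 11.13 and 11.54 (median 11.35) at 195 days and between 13.60 and 14.17 (median 13.97) at birth, a rise of 2.60 ± 0.13 (adjusted p = 3.35e-10). UQCRFS1 went from 11.53 to 12.04 (median 11.62) to 12.74 to 13.84 (median 13.34), a rise of 1.60 ± 0.16 (adjusted p = 3.84e-07). UQCRC2, the other core protein of complex III, went from 10.999 to 11.55 (median 11.14) to 12.33 to 13.04 (median 12.68), a rise of 1.51 ± 0.15 (adjusted p = 4.85e-07). The 5 foetuses and 6 newborns did not overlap in any of these genes. All were picked from the called genes on these same values, and overlap was not counted over all genes, so this adds no support. The CYCS change at this step was by far its largest: it had risen by 1.12 from 60 to 135 days and was not called from 135 to 195 days.

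COX7A1 was at 15.82 to 16.39 in the newborns, all above the foetuses, a further rise of 0.88 ± 0.16 (adjusted p = 2.08e-04). COX6A2, in contrast, was at 14.24, 14.33, 14.50, 14.64, 14.73 and 14.74 in the newborns, within or below the 14.58 to 15.12 of the 195-day foetuses, and did not pass. COX8 fell by 1.12 ± 0.26 (adjusted p = 0.00126), from 12.46 to 12.63 (median 12.55) to 10.99 to 12.07 (median 11.31), with no overlap.

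COX7A2L fell by 0.34 ± 0.12 (adjusted p = 0.0238; 12.84 to 13.18, median 12.93, then 12.30 to 13.06, median 12.60), with overlap, did not pass with GP041A and GP041B as 1 animal (adjusted p = 0.0559), and was higher at birth by 0.10 with channels centred on their medians and by 0.37 from the processed signals. COX7A2 differed by -0.45 (adjusted p = 0.121). The ATP synthase genes that did not pass were ATP5B (0.24, adjusted p = 0.0692), ATP5G3 (0.22), ATP5G2 (0.12) and ATP5I (-0.13). At this step 4 of 5 erythroid and 4 of 5 fibroblast markers also fell, the erythroid sum from between 105012 and 440187 over the foetuses to between 2489 and 4742 at birth; their part in the result was not tested. Leaving out each of the 5 foetuses of 195 days, or GP672, gave 25 to 30 genes called; no newborn was left out.

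From birth (6 animals) to 3 months (8 animals) 10 genes rose and 3 fell, where 45.1% of all genes changed (22.5% upwards, 22.6% downwards), and slide and age cannot be told apart. ATP5S rose by 0.99 ± 0.20 (adjusted p = 0.00112), from 10.20 to 11.70 (median 11.33) to 11.87 to 12.59 (median 12.17). UQCRB, a subunit of complex III that binds ubiquinone, rose by 0.83 ± 0.14 (adjusted p = 4.48e-04), from 7.82 to 8.81 (median 8.44) to 8.90 to 9.63 (median 9.27). COX6A2 rose by 0.61 ± 0.12 (adjusted p = 9.94e-04), from 14.24 to 14.74 (median 14.57) to 14.74 to 15.44 (median 15.17). These 3 genes had no overlap between the ages, unlike the 3 that fell. Again the genes were picked from those called on these same values, and overlap was not counted over all genes.

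ATP5H fell by 0.35 ± 0.13 (adjusted p = 0.039; 9.75 to 10.66, median 10.14, then 9.40 to 9.98, median 9.89). ATP5G2 fell by 0.34 ± 0.12 (adjusted p = 0.0306; 15.84 to 16.37, median 16.04, then 15.37 to 16.06, median 15.71), and COX6B by 0.34 ± 0.10 (adjusted p = 0.0129; 9.18 to 9.49, median 9.29, then 8.48 to 9.21, median 8.98). The other genes that rose were COX7B, COX7C, COX5B, UQCRFS1, ATP5E, ATP5G3 and ATP5B, by 0.33 to 0.51. The median change of the 36 genes was 0.19 (-0.02 for all genes). It was -0.25 (all genes -0.09) with channels centred on their medians and -0.17 (all genes -0.16) from the processed signals. Centring left 2 genes called (UQCRB up, ATP5G2 down), where 1684 of 14732 genes were called, 562 of them upwards. The processed signals left 8 (UQCRB and ATP5S up, 6 down), where 6815 genes were called, 2538 of them upwards. ATP5B, ATP5E and ATP5G3 turned negative under both. At this step 5 of 5 leukocyte markers rose (summed intensity 1123 to 1493 at birth and 2545 to 5337 at 3 months), with 3 of 3 myoblast, 3 of 5 fibroblast and 3 of 4 adipocyte markers, while 0 of 6 muscle fibre markers passed; their part in the result was not tested.

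The next steps could be followed within animals on the same slide. From 3 to 20 months 1 gene rose and 5 fell, where 28.6% of all genes changed (14.2% upwards, 14.5% downwards). The processed signals gave 9 up and 0 down, with COX6C alone shared, where 4861 of 14732 genes were called, 3331 of them upwards. The median change of the 36 genes was -0.09. It was 0.17 with channels centred on their medians and 0.18 from the processed signals, against 0.06 and 0.11 for all genes. COX6C rose by 0.29 ± 0.06 (adjusted p = 0.00467), from 14.46 to 14.89 (median 14.77) to 14.81 to 15.19 (median 15.03). ATP5D, the delta subunit of F1, fell by 0.50 ± 0.10 (adjusted p = 0.00511; 13.79 to 14.89, median 14.44, then 13.62 to 14.35, median 13.90). COX7A2L fell by 0.26 ± 0.05 (adjusted p = 0.00325; 12.20 to 12.54, median 12.38, then 11.92 to 12.29, median 12.12).

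ATP5E fell by 0.28 ± 0.07 (adjusted p = 0.0112; 14.63 to 15.34, median 15.01, then 14.62 to 14.84, median 14.72). COX8 (-0.23) and ATP5G1 (-0.20) were the others that fell. Each of the 6 genes had ages that overlapped. COX7A1 and UQCRH lacked a value in 2 animals at 3 months, where both spots of the probe were flagged on 1 array, so their tests rested on 6 pairs; COX7A1 differed by -0.09 (adjusted p = 0.474). None of the 36 passed with channels centred on their medians, where only 33 of all 14732 genes did. ATP5G1 was then higher at 20 months by 0.08, and from the processed signals ATP5G1 (0.14) and ATP5E (0.05) were higher. At this step 4 of 4 adipocyte markers rose (summed intensity 1037 to 5712 at 3 months and 3025 to 14476 at 20 months). With them 1 of 3 myoblast and 1 of 5 erythroid markers rose. Markers that fell were 2 of 5 fibroblast, 2 of 4 endothelial and 1 of 5 leukocyte ones, and 0 of 6 muscle fibre markers passed. Their part in the result was not tested.

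From 25 to 30 months 15 genes were lower and none higher, where 24% of all genes changed (13.2% upwards, 10.8% downwards), but this direction depends on the scaling. With channels only centred on their medians 34 of the 36 genes were higher at 30 months, where 7970 of 14732 genes were called higher. That setting moved the median change of all genes from 0.01 to 0.48 and that of the 36 genes from -0.21 to 0.83. The median of the 36 genes was -0.21 both with quantile normalization over channels and from the processed signals, where that of all genes was 0.01. UQCRB was lower by 0.60 ± 0.08 (adjusted p = 7.32e-04), 9.43 to 9.98 (median 9.66) at 25 months and 8.64 to 9.40 (median 9.10) at 30 months, with no overlap; with centred channels it was higher by 0.06. ATP5G1 was lower by 0.45 ± 0.07 (adjusted p = 0.00171; 15.74 to 16.39, median 16.03, then 15.43 to 15.77, median 15.63) and higher by 0.63 with centred channels. ATP5S was lower by 0.35 ± 0.10 (adjusted p = 0.0272; 11.62 to 12.27, median 12.14, then 11.32 to 12.21, median 11.73) and higher by 0.68 with centred channels.

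The other 12, lower by 0.21 to 0.35 and higher with centred channels, were UQCRC1, UQCRC2, UQCRFS1, CYC1, CYCS, COX5B, COX7A2, COX8, ATP5A1, ATP5C1, ATP5G3 and ATP5O. The muscle forms COX7A1 (-0.13, adjusted p = 0.241) and COX6A2 (-0.23, adjusted p = 0.136) did not pass. Of the genes taken by the naming rule, none was called without the 4 animals of slide 10, and 6 without those of slide 12. Over all genes these 2 fits called 649 and 767, against 3542 with all animals. Erythroid markers were lower too (4 of 5, summed intensity 5737 to 30036 at 25 months and 1101 to 2900 at 30 months), and 3 of 5 leukocyte markers, while 0 of 6 muscle fibre markers passed; their part in the result was not tested.

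**Figure D3:**
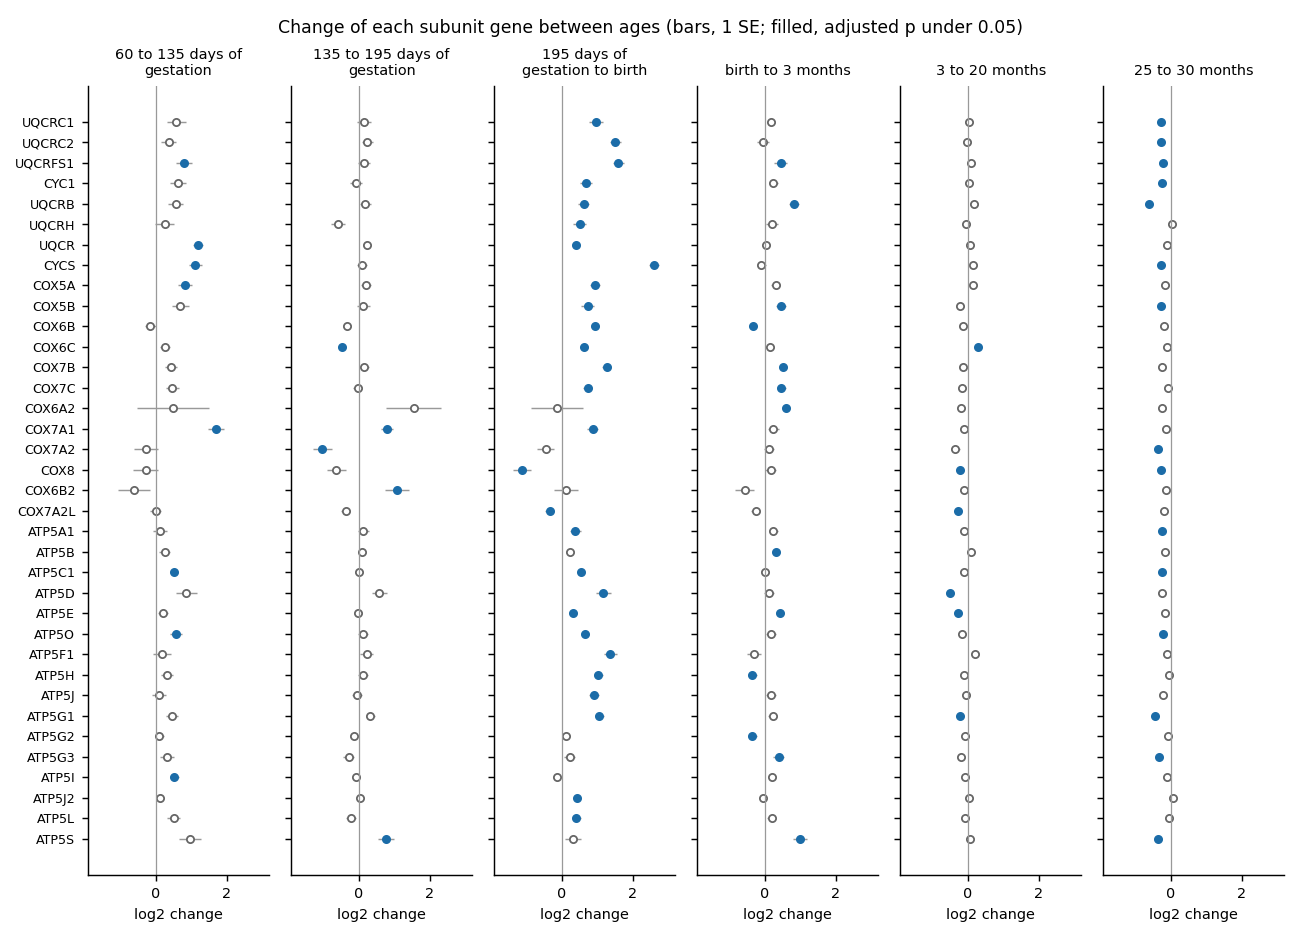
Log2 change ± 1 SE of each of the 36 genes in 6 age steps, with filled points where the adjusted p was under 0.05. The points move right most from 195 days to birth, where 26 genes rose. The fall from 25 to 30 months (15 genes) turned into a rise when channels were only centred on their medians. That centring also moved the median change of all genes at this step to 0.48. From the processed signals the median change of the 36 genes at this step was -0.21.

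Isoform shifts were then measured as the log2 ratio of a pair of genes in the same animal, in which anything that moves both genes equally cancels; the sign of a ratio depends on the probes and only its change is read. The ratio of COX7A1 to COX7A2 was -0.99 and -0.53 in the 2 animals at 60 days, averaged 1.22 ± 0.53 at 135 days (SD, n = 5; 1.34 without GP672), 3.00 ± 0.29 at 195 days (n = 5) and 4.34 ± 0.35 at birth (n = 6), and stayed between 4.40 and 4.79 on average at the 6 post-natal ages. Foetuses and post-natal animals did not overlap: the mean rose from 1.63 to 4.69, by 3.06 (exact permutation test over animals, two-sided, p = 2.04e-05, adjusted over 6 pairs 4.08e-05). Even the highest 195-day foetus (3.19) lay below the lowest newborn (3.90).

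The ratio of COX8B to COX8 ran in parallel, from -3.00 and -2.10 at 60 days to 0.15 ± 0.40 at 135 days (SD, n = 5; 0.20 without GP672), 1.78 ± 0.35 at 195 days (n = 5) and 3.78 ± 0.42 at birth (n = 6). The difference between foetuses and post-natal animals was 3.22 (exact permutation p = 2.72e-05, adjusted 4.08e-05), again with no overlap. From 135 days to birth, within the same slides, the COX7A1 ratio rose by 3.12, the COX8B ratio by 3.63 and the ATP5G1 to ATP5G3 ratio by 1.43, each with no overlap (exact permutation p = 0.00216, adjusted 0.00433). Without GP672 these were 3.00, 3.59 and 1.55 (exact permutation, adjusted p = 0.00952).

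Among the subunit c genes, ATP5G1 over ATP5G3 went from -0.93 in the foetuses to 0.09 after birth, a rise of 1.02 with no overlap, and ATP5G2 over ATP5G3 from 0.70 to 0.03, lower by 0.67 with overlap (exact permutation, adjusted p = 4.08e-05 for both). For COX4I2 over COX4I1 (0.41, adjusted p = 0.103) and COX6B2 over COX6B (-0.42, adjusted p = 0.125) no difference was detected. From 3 to 20 months no pair passed. COX8B over COX8 was higher at 20 months by 0.18 in 7 of 8 animals (exact sign permutation p = 0.0234, adjusted 0.141), and COX7A1 over COX7A2 in 3 of the 6 animals with values (0.18, adjusted p = 0.875).

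**Figure D4:**
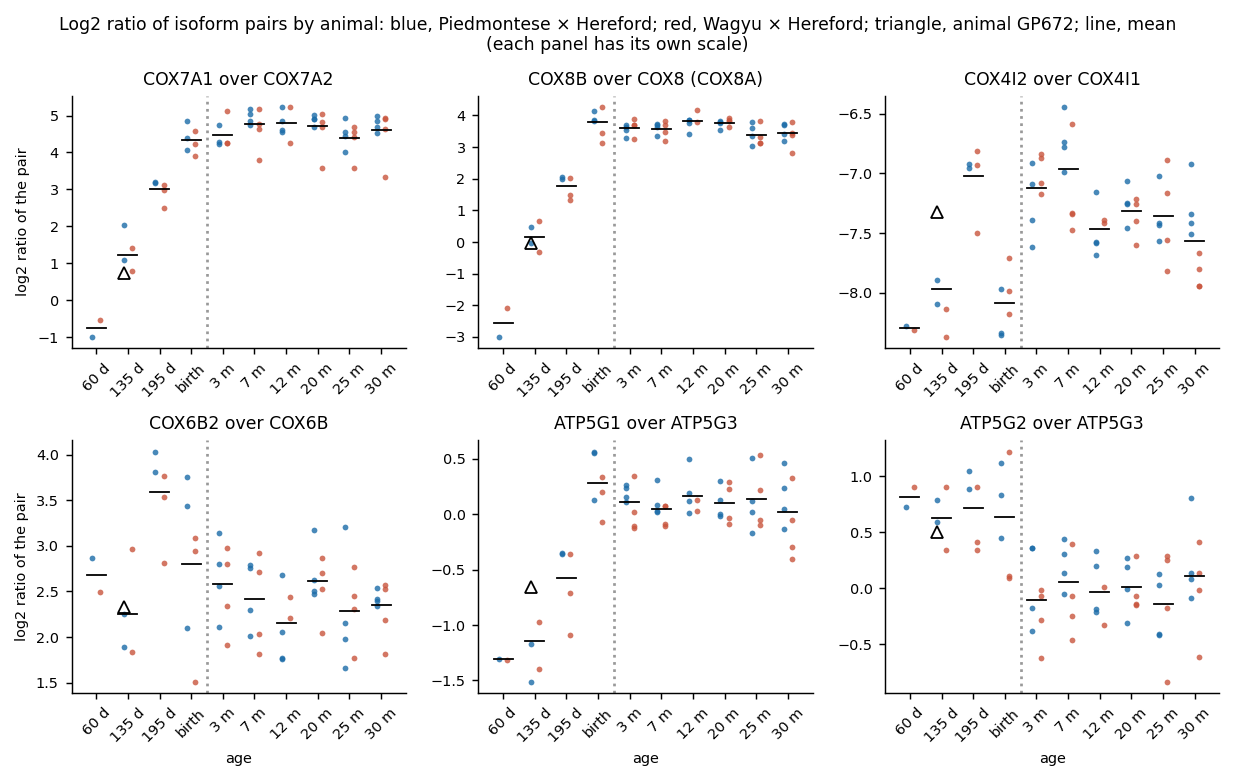
Log2 ratio of 6 pairs of forms in each animal by age, each panel on its own scale, with blue points for Piedmontese × Hereford, red points for Wagyu × Hereford, a triangle for GP672 and a short line for the mean of each age. COX7A1 over COX7A2 climbs from below 0 at 60 days to 4.34 at birth and COX8B over COX8 to 3.78, while COX4I2 over COX4I1 and COX6B2 over COX6B spread without such a climb.

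The crosses were not told apart by these genes. Before and at birth, 9 animals a cross, none of the 36 and no gene at all passed (0%), with 613 genes and 0 of the 36 at an unadjusted p under 0.05 by limma. ATP5G3 had the smallest p of the 36, with a median of 15.17 (14.87 to 15.63) in the Piedmontese cross and 15.48 (15.05 to 15.83) in the Wagyu cross, a difference of -0.22 (adjusted p = 0.947). After birth, with 5 and 4 animals, again 0% of genes passed (688 at an unadjusted p under 0.05, 2 of them among the 36), and ATP5G3 differed by -0.24 (adjusted p = 0.972). There, 34 of the 36 differences had a negative sign, lower in the Piedmontese cross, with a median of -0.08, which became 0.10 with channels centred on their medians.

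The diet arrays asked whether feed restriction changes muscle expression. At time 0 none of the 36 genes differed between 4 growth and 4 restricted animals, where 1% of all genes did; 1 of the 36 had an unadjusted p under 0.05 (ATP5J2, -0.30, adjusted p = 0.18), at 7.84 to 8.08 in the growth animals and 7.58 to 7.79 in the restricted ones. At time 1, 13 of the 36 were lower in the 3 restricted than in the 4 growth animals and none was higher, where 14.1% of all genes differed (7.1% upwards, 6.96% downwards). The median difference was -0.40 for the 36 genes and 0.00 for all. With channels centred on their medians it was -0.09 and 0.09, and 7 genes passed: COX7A1, COX5A, COX7C, UQCRFS1, ATP5G1 and ATP5G3 lower and COX8 higher. The processed signals and the ratios within arrays each left 6 genes, all lower, where 1477 and 701 of all genes passed. The 13 were COX7A1, COX6A2, COX5A, COX6C, COX7B and COX7C of complex IV, UQCRFS1, UQCRH and UQCR of complex III, and ATP5A1, ATP5G1, ATP5G3 and ATP5J of ATP synthase. The diets did not overlap in any of them. That adds no support, since the 13 were picked by their p on these same values and overlap was not counted over all genes.

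COX7A1 at time 1 was at 16.22, 16.45, 16.48 and 16.62 in the growth animals and at 14.52, 15.30 and 15.51 in the restricted animals, a difference of -1.33 ± 0.23 (SE, adjusted p = 0.0142). ATP5G3 was at 16.15, 16.45, 16.49 and 16.71 against 14.90, 15.20 and 15.40, a difference of -1.29 ± 0.17 (adjusted p = 0.00714). UQCRFS1 was at 14.18, 14.22, 14.29 and 14.31 against 12.53, 13.02 and 13.77, a difference of -1.14 ± 0.26 (adjusted p = 0.0281). All restricted animals lay below all growth animals, with RL27 lowest for the first 2 genes and RL671 for UQCRFS1.

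COX5A was at 16.19, 16.24, 16.25 and 16.34 against 14.96, 15.36 and 15.37 (-1.03, adjusted p = 0.00605). COX6A2 was at 15.00, 15.10, 15.35 and 15.51 against 13.96, 14.34 and 14.85 (-0.86, adjusted p = 0.0421). ATP5G1 was at 15.80, 15.82, 15.85 and 16.11 against 14.65, 15.12 and 15.20 (-0.91, adjusted p = 0.0139). The muscle form COX8B was lower as well, at 14.28, 14.53 and 14.64 in the restricted animals against 14.95, 15.06, 15.23 and 15.40.

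The liver forms did not follow. COX7A2 was at 10.99, 11.01, 11.17 and 11.51 in the growth animals and 10.91, 11.13 and 11.27 in the restricted animals, a difference of -0.06. COX8 was at 11.35, 11.49, 11.52 and 11.57 against 11.60, 11.84 and 11.96, higher in every restricted animal, but the difference of 0.31 did not pass (adjusted p = 0.116); with channels centred on their medians it was 0.63 and passed (adjusted p = 0.0402).

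Not all libraries weighed the same at time 1. Single animals left out gave 7 to 14 of the 36 genes called, with 7 without RG208, RG604 or RL27 and 8 without RG157 or RL671. Over all genes these fits called between 641 (without RL27) and 2033 (without RL24), against 2072 with all animals. COX6A2, UQCR, UQCRH, UQCRFS1, COX6C and ATP5A1 each missed the threshold when 4 to 6 of the 7 animals were left out in turn. The muscle fibre sum was 669724 to 1386770 in the growth animals and 309345 to 490424 in the restricted ones, with 3 of 6 markers lower and desmin (DES) higher, and the fibroblast sum was 28903 to 97137 against 4070 to 6396, with 4 of 5 markers lower; their part in the result was not tested.

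Each diet time lay on its own slide, which held both diets. A change over time within a diet therefore cannot be told apart from slide, and only the difference between diets is read. Within animals measured at both times, the change from time 0 to time 1 differed between the diets in 5 of the 36 genes, all lower on restriction, where 8.48% of all genes differed (4.14% upwards, 4.34% downwards). COX7A1 changed by between -0.12 and 0.35 on the growth diet and between -1.66 and -0.54 on the restricted diet, a difference of -1.19 ± 0.26 (adjusted p = 0.0351). UQCRFS1 changed by between -0.27 and 0.24 against between -1.23 and -0.74, a difference of -1.04 ± 0.19 (adjusted p = 0.022). COX7C changed by between -0.05 and 0.38 against between -1.22 and -0.27, a difference of -1.01 ± 0.25 (adjusted p = 0.0475).

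COX7B (-0.82, adjusted p = 0.0274) and ATP5G1 (-0.66, adjusted p = 0.0451) were the others. The diets overlapped in none of the 5, which were picked by their p on these same values, and overlap was not counted over all genes. The calls rest on few animals: 0 genes passed without RG166 or without RL27, 1 without RG208, RG604 or RL24, 2 without RG157 and 7 without RL671. None of the 36 passed from centred channels or from the processed signals, where 1314 and 581 of all genes did. The 5 differences stayed negative under both. The median difference of the 36 genes was -0.33, -0.31 from the processed signals and 0.05 with centred channels. Among the markers ACTA1, MYH1, COL3A1, LUM and PTPRC were also lower on restriction and DES was higher, and their part in the result was not tested. The COX7A1 to COX7A2 ratio changed by 1.25 less on restriction and the COX8B to COX8 ratio by 0.89 less, with no overlap in either; the exact permutation p of 0.0286 was the smallest that 3 and 4 animals allow, and it did not pass over the 6 pairs (adjusted 0.0857).

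**Figure D5:**
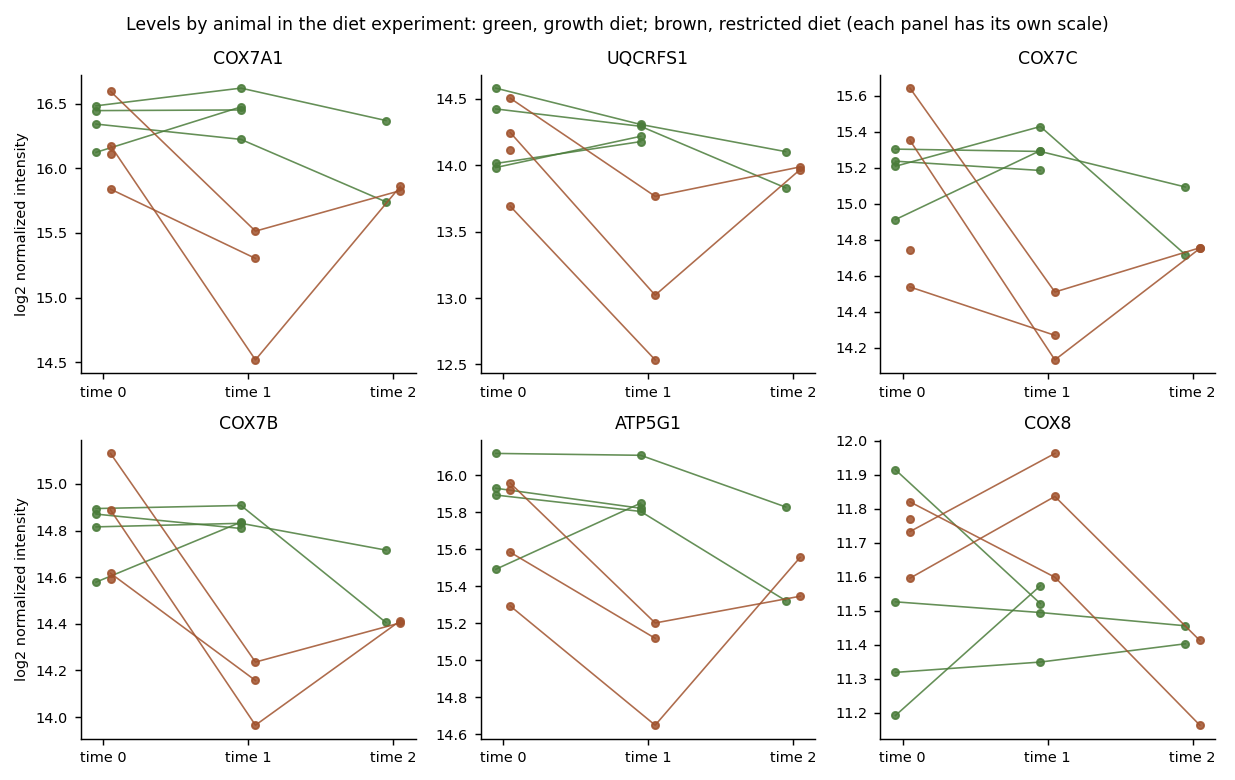
Log2 level of COX7A1, UQCRFS1, COX7C, COX7B, ATP5G1 and COX8 in each animal at times 0, 1 and 2, green for the growth diet and brown for the restricted diet, with lines joining the same animal. At time 1 the restricted animals lie below the growth animals in the first 5 genes (COX7A1 at 14.52 to 15.51 against 16.22 to 16.62), and at time 2 the diets overlap in those 5 genes.

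At time 2, with 2 animals a diet, no gene passed (0%; 819 genes and 2 of the 36 at an unadjusted p under 0.05 by limma). COX7A1 was at 15.74 and 16.37 on the growth diet and at 15.83 and 15.86 on the restricted diet. UQCRFS1 was at 13.83 and 14.10 against 13.97 and 13.99, and COX7C at 14.72 and 15.09 against 14.75 and 14.76. In these 3 genes the restricted animals lay between the growth animals. COX7B was at 14.41 and 14.72 against 14.40 and 14.41, and ATP5G1 at 15.32 and 15.83 against 15.35 and 15.56, so that the diets overlapped in all 5 genes of the diet change. Of the 36 differences 29 were negative, with a median of -0.14. ATP5F1, with the smallest p, was at 10.23 and 10.58 against 10.79 and 11.04 (0.52, adjusted p = 0.883). With 2 animals a diet, a difference of this size was not detectable.

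The rest of the respiratory chain was followed through lists fixed for this work. Between foetuses and post-natal animals 36 of 37 genes listed under complex I and 4 of 4 complex II genes rose, with medians of 1.20 and 1.26 beside 0.84 for the 36 genes. The 37 include NDUFA4L2, a relative of NDUFA4, which is counted with complex IV here. NDUFA4L2 was the gene of the 37 that did not pass, so every other gene listed under complex I rose. Of 10 assembly factors of complex IV 7 rose and 1 fell, and of 11 regulators of mitochondrial genes 8 rose while PPRC1, a relative of the coactivator PGC-1, fell. Of 9 carriers and porins 7 rose, and the ADP/ATP carriers SLC25A5 and SLC25A6 fell. Of the 37 genes 12 rose from 60 to 135 days (4.96% of all genes), 5 from 135 to 195 days (8.35%) and 31 from 195 days to birth (33.6%), where NDUFA4L2 fell, and 13 were lower on restriction at time 1 (6.96%). NDUFA4L2 is among the 5 that rose from 135 to 195 days and among the 13 lower on restriction.

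The 6 mitochondrially encoded subunits measured differed in their pattern. Only ATP8 (2.95) and CYTB (0.86) rose between foetuses and post-natal animals, while COX1 (0.01), COX2 (0.00), ATP6 (0.08) and COX3 (-0.18), which encode core subunits of complex IV and, for ATP6, of ATP synthase, did not pass. The ATP8 probe had a mean level of 12.50 and the ATP6 probe 16.94, and the part of the probes in this difference was not tested. On restriction at time 1, in contrast, 5 of the 6 were lower: COX1 by -1.48, CYTB by -1.28, COX2 by -1.27, COX3 by -1.26 and ATP6 by -1.02. The COX1 probe (mt:COX1) was at 17.51, 17.56, 17.96 and 18.03 in the growth animals and at 16.19, 16.32 and 16.35 in the restricted animals. The same 5 differed between the diets in the change from time 0 to time 1. COX1 changed by between 0.83 and 2.09 on the growth diet and between -1.37 and -0.50 on restriction. Within a diet, time and slide cannot be told apart. Of the subunits that the naming rule missed, 6 of 6 rose between foetuses and post-natal animals, UQCRQ by 1.09, UQCR10 by 1.20 and NDUFA4 by 0.88 among them.

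How closely the 36 genes moved together was described over the 26 condition means, which share animals, slides and dyes and so carry no test. The median Pearson correlation between pairs was 0.80, and 23.8% of the 630 pairs were negative. Of the 36 genes, 22 had a correlation above 0.9 with the mean of the others, led by ATP5G1 (0.985), COX7B (0.982) and UQCRC1 (0.982), and 5 had a negative one: COX8 (-0.91), COX7A2L (-0.86), COX7A2 (-0.85), ATP5G2 (-0.60) and COX6B2 (-0.15). Over the 12 post-natal conditions alone the median was 0.47, only ATP5J (0.935) and ATP5G1 (0.914) lay above 0.9, and ATP5J2 was the only gene with a negative value.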

How the data were processed

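The authors labelled RNA of 2 animals per array with Cy3 and Cy5, scanned the arrays and deposited, per the file headers, spot and background intensity of both channels from Agilent Feature Extraction 9.5.1, with flags; the scanner's log ratios and the deposited series values were not used as results. Between 49.9% and 72.8% of spots were well above background in Cy3 and between 55.1% and 76.4% in Cy5. The mean intensity was corrected with normexp (offset 50), normalized by loess within arrays and Aquantile between arrays in limma 3.58.1 (R 4.3.3; statmod 1.5.0), and turned to log2 per channel. Control spots had weight 0 and outlier-flagged spots were left out. Probes well above background in at least 24 of 96 channels and lacking a value on at most 1 array were kept, each gene's mean dye difference was taken out, probes of a gene and channels of an animal at a time were averaged, and 14732 genes remained. Of 21475 probes, 16698 matched a RefSeq gene, the 36 included. Figures were drawn with matplotlib 3.10.9 (Python 3.11.15).

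Animals were the replicates. Each comparison was a limma fit across all genes, two-sided, with Benjamini-Hochberg adjustment at 0.05; crosses entered the foetal and newborn fits as a term, and repeated ages used the animal as a block. Isoform ratios used exact permutation over animals. Named genes were both genes of each isoform pair, UQCRC1, CYC1, CYCS, COX5A, COX5B, ATP5A1, ATP5B and, per comparison, the 3 largest called rises and falls, or the smallest p where none was called. The genes, lists and tests were chosen with earlier results of these data known. Alternatives were other background corrections, normalizations, filters, dye and slide terms, and leaving out animals. On simulated data with 200 genes changed by 1 log2 unit, 88.5% were recovered for foetal against post-natal animals, 70% to 88% for the foetal steps, 67.5% for the diets at time 1 and 47% for the diet change.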

Additional observations from a re-analysis of the deposited data

Results flagged for a closer look

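A few values lay apart from the rest of their group, among 67 groups of 4 to 10 animals looked at, of which chance alone flags about 1 in 20. COX6B2 at 195 days was 11.06 in the Wagyu cross foetus GW067 and at least 12.06 in the others. COX6B at 3 months was 8.48 in GP112 and at least 8.94 in the others. ATP5S at 25 months was 11.62 in GP201 and at least 11.99 in the others. The change from time 0 to time 1 differed between the diets, by a test of that difference, for COX7A1 (-1.19), UQCRFS1 (-1.04), COX7C (-1.01), COX7B (-0.82) and ATP5G1 (-0.66).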

How the results depend on the processing

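Counts of genes called out of the 36 kept within 1.5 times of the reported value under all alternatives run for foetal against post-natal animals (10 of 10), 195 days to birth (16 of 16), both cross comparisons (12 of 12 and 18 of 18) and the diets at times 0 and 2 (17 of 17 and 13 of 13), as did the isoform results for foetal against post-natal animals, 135 days to birth and the diet change. With channels only centred on their medians the counts were 0 at 60 to 135 days, 0 at 135 to 195 days, 2 from birth to 3 months, 0 from 3 to 20 months, 34 from 25 to 30 months, 7 for the diets at time 1 and 0 for the diet change. Of all 14732 genes centring called 380 at 60 to 135 days, 415 at 135 to 195 days, 1684 from birth to 3 months and 33 from 3 to 20 months. It called 11025 at 25 to 30 months, 7970 of them upwards, 2333 for the diets at time 1 and 1314 for the diet change. With the processed signals they were 15 at 60 to 135 days, 8 from birth to 3 months, 7 from 25 to 30 months, 9 (all rises, 1 shared) from 3 to 20 months, 6 for the diets at time 1 and 0 for the diet change, and 1 isoform pair passed from 3 to 20 months. For all genes the processed signals called 4861 of 14732 from 3 to 20 months, 3331 of them upwards. Without removing the dye effect the diet change had 3, with ages as unrelated samples 25 to 30 months had 8, with the slide as a fixed block the foetal steps had 14 and 8, with ratios within arrays the diets at time 1 had 6, and 25 to 30 months had 0 without slide 10 and 6 without slide 12. Without GP672 the first 2 foetal steps had 13 and 8. Counting GP041A and GP041B as 1 animal, an alternative chosen after seeing the data, gave 3 at 135 to 195 days.

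Leaving out 1 animal in turn gave 2 to 13 genes at 60 to 135 days, 3 to 8 at 135 to 195 days, 25 to 30 from 195 days to birth (195-day foetuses and GP672 only), 7 to 14 for the diets at time 1, 0 to 7 for the diet change, and 0 each time for the crosses after birth and the diets at times 0 and 2; 3 isoform pairs were called each time from 135 days to birth and 0 each time for the diet change. For foetal against post-natal animals and for the crosses before and at birth only GP672 was left out, which gave 34 genes and 4 isoform pairs, and 0 genes.

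Signs turned with centred channels for ATP5G2 between foetuses and post-natal animals (0.38), COX7A2L from 195 days to birth (0.10), ATP5B (-0.25), ATP5E (-0.013) and ATP5G3 (-0.080) from birth to 3 months, ATP5G1 from 3 to 20 months (0.081) and, from 25 to 30 months, ATP5A1 (0.81), ATP5C1 (0.82), ATP5G1 (0.63), ATP5G3 (0.70), ATP5O (0.89), ATP5S (0.68), COX5B (0.82), COX7A2 (0.69), COX8 (0.77), CYC1 (0.78), CYCS (0.83), UQCRB (0.062), UQCRC1 (0.79), UQCRC2 (0.78) and UQCRFS1 (0.89). With the processed signals they turned for ATP5G2 (0.74), COX7A2L (0.37), ATP5B (-0.11), ATP5E (-0.013) and ATP5G3 (-0.10) at the same steps, and for ATP5E (0.054) and ATP5G1 (0.14) from 3 to 20 months. The cause was not tested.

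Centring moved the median change of all genes to 0.12 (foetal against post-natal), 0.20 (195 days to birth), 0.48 (25 to 30 months) and 0.15 (diet change), and the processed signals to 0.26, 0.38, 0.14 (60 to 135 days), -0.16 (birth to 3 months) and 0.11 (3 to 20 months). The share of calls that were rises became 31.6% with centring at 60 to 135 days (main 48.4%), 60% at 135 to 195 days (48%), 33.4% from birth to 3 months (49.9%), 72.3% from 25 to 30 months (55.1%), 34.6%, 74.9% and 79.3% for the diets at time 0, time 1 and their change (52.7%, 50.5% and 48.8%), and with the processed signals 74.8%, 59.8%, 65.4% (195 days to birth, 53.5%), 37.2% and, from 3 to 20 months, 68.5% (49.5%). Requiring a signal in all channels gave 60.4% at 60 to 135 days. No paired analysis was possible because array numbers, given in accession order, pair no samples across groups, where those numbers were the only link. Elsewhere, repeated ages and diet times were paired by animal, and crosses and diets were also compared as ratios within arrays.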
